A study of Arabidopsis thaliana with 12 samples.

Results

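The nuclear genes for the proteins of the 2 photosystems and of their light-harvesting antennae were followed in mRNA sequencing of Arabidopsis thaliana seedlings. They were chosen by name among the nuclear LHCA, LHCB, PSB and PSA genes of the deposited table. The choice left some out, such as LHCB7, PSBP2, PSBTN, PSB27 and PSB28, which are counted below with related genes. The chosen genes number 42 of the 33602 annotated genes in the table. By role they comprise 6 antenna genes of photosystem I (LHCA1 to LHCA6), 9 genes of the major antenna of photosystem II (LHCB1.1 to LHCB1.5, LHCB2.1 to LHCB2.3 and LHCB3), 5 genes of its minor antenna (LHCB4.1, LHCB4.2, LHCB4.3, LHCB5 and LHCB6), 10 genes of photosystem II subunits and 12 genes of photosystem I subunits. The seedlings were whole plants of the Columbia background, 2 weeks old, kept on MS plates at 22 °C. The sample records give 12 h of light and 12 h of dark, and all groups shared these conditions. The paper's general growth methods give a longer day, and which held for these libraries cannot be settled here. The 4 groups were wild type (WT), pkl (the allele pkl-1 of the CHD chromatin remodeler gene PICKLE), nrpd1 (nrpd1-3, a mutant of the largest subunit of RNA polymerase IV) and nrpe1 (nrpe1-11, a mutant of the largest subunit of RNA polymerase V), with 3 libraries each, numbered replicate 1, 2 and 3. Each mutant group holds a single allele, and no complemented line was among the libraries.

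Light is captured by chlorophyll-binding proteins of the LHC family and passed to the reaction centres of photosystem II, which splits water, and photosystem I, which reduces ferredoxin. The core of each reaction centre is encoded in the chloroplast, while the antenna proteins and many peripheral subunits are encoded in the nucleus, made in the cytosol and imported. The nuclear genes are known for their high expression in green tissue, for their response to light and for daily rhythms of their transcripts.

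The totals of 11 libraries, recovered from the steps between the deposited values, were 15242073 to 21475250 reads. The total of nrpe1 replicate 2 was 7204299. Levels are given as RPKM, the read number of a gene scaled to its length and to the library total. NRPD1 transcripts lay at 1.23 to 1.55 RPKM in WT and 0.764 to 1.17 in nrpd1, and NRPE1 transcripts at 1.42 to 2.3 in WT and 0.394 to 0.874 in nrpe1, without overlap. PKL transcripts were not lower in pkl (20.1 to 26.6 RPKM) than in WT (16.1 to 22.5), so its level is no check of that genotype. Transcripts of both green tissue and root were present, as the label of whole seedlings says. The 42 genes were abundant, and 9 root markers summed to 1070 to 1710 RPKM, or to 53.4 to 76.0 without PYK10. The sum of 10 seed storage genes was 0.877 to 1.54 RPKM outside pkl. Since whole seedlings were used, fewer green cells and less RNA per green cell cannot be told apart anywhere below.

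The upstream DNA of 5 of the genes is shown because the results turn on them: the 3 LHCB2 genes moved most between libraries, LHCB1.3 was the most abundant of the 42 and LHCB4.3 moved opposite to the rest in pkl. Each sequence is the 250 bases before the gene start in the RefSeq annotation of TAIR10.1, 5′ to 3′ on the strand of the gene. Capitals mark matches to 5 motifs searched on both strands: the G-box CACGTG, the I-box GATAAG, the evening element AAAATATCT, the CCA1-binding site AAAAATCT and CCAATC. The evening element and the CCA1-binding site were in none of these 5 windows.
LHCB2.1 (chr2:1824481-1824730, minus strand): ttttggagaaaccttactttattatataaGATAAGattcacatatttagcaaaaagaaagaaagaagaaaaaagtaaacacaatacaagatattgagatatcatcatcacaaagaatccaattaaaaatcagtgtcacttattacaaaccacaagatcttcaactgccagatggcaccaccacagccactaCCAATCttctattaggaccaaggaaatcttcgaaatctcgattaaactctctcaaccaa
LHCB2.2 (chr2:1800473-1800722, minus strand): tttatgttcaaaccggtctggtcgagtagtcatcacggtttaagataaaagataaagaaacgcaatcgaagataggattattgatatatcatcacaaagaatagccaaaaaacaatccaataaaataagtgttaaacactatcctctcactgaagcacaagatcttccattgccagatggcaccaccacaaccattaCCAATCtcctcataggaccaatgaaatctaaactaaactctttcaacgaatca
LHCB2.3 (chr3:10255656-10255905, plus strand): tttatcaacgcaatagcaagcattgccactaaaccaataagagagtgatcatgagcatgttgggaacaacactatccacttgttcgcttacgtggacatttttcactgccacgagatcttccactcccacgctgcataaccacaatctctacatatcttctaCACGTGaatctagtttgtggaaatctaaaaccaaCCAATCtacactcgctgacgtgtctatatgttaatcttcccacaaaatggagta
LHCB1.3 (chr1:10477635-10477884, plus strand): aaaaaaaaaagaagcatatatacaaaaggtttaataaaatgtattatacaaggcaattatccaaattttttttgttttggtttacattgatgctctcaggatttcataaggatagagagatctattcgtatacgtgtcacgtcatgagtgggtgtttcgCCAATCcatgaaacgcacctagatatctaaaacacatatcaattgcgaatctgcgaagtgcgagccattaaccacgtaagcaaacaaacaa
LHCB4.3 (chr2:16745378-16745627, plus strand): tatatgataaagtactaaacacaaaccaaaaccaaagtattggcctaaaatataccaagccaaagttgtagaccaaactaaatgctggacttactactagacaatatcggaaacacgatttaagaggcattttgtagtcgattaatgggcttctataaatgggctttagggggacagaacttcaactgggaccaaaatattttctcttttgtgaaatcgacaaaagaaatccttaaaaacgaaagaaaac

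All 3 LHCB2 windows held CCAATC at nearly the same distance from the gene start, with its first base at -59 in LHCB2.1, -53 in LHCB2.2 and -54 in LHCB2.3, counted from -1 at the last base before the start. LHCB1.3 held it at -91. LHCB4.3 held none of the 5 motifs, and neither did PSAD2, PSAL, PSAH1 or PSAG, which were lower in pkl. Lacking them was therefore not particular to LHCB4.3. LHCB2.3 also had a G-box at -88 and LHCB2.1 an I-box at -221. The LHCB2.1 and LHCB2.2 windows shared a run of 20 bases, tgccagatggcaccaccaca, starting at -86 and -80, and the longest run that either shared with LHCB2.3 was 8 and 10 bases. Among the 42 genes, CCAATC stood in 11 windows (26.2%, against 10.23% of 27443 RefSeq gene starts), the G-box in 8 (19.0% against 6.49%), the I-box in 9 (21.4% against 12.29%), the CCA1-binding site in 5 (11.9% against 6.69%) and the evening element in 1 (2.4% against 2.36%). Of the 11 genes with CCAATC, 10 were antenna genes (of 20) and 1, PSBQ2, was a subunit gene (of 22). No motif overlapped another in the 5 windows printed, and a match describes letters only.

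The sequences also set how well the genes can be told apart. The coding sequences of LHCB2.1 and LHCB2.2 were 96.6% identical, and those of LHCB1.1, LHCB1.2 and LHCB1.3 were 95.6% to 96.4% identical. Of all 50-base words in the exons, 29.5% in LHCB2.2, 23.5% in LHCB2.1 and 20.5% in LHCB1.1 occurred elsewhere in the genome, against 0% in LHCB2.3 and LHCB4.3. LHCB1.2, LHCB1.1 and LHCB1.3 lie side by side on chromosome 1 (10472280 to 10479114), LHCB1.5 and LHCB1.4 are neighbours on chromosome 2 (14522524 to 14525918), LHCB2.2 (1799234 to 1800472) and LHCB2.1 (1822990 to 1824480) lie elsewhere on that chromosome, and LHCB2.3 lies on chromosome 3 (10255906 to 10257489). The handling of reads with several positions is not given in the sources used here, so levels of LHCB1 and LHCB2 genes other than LHCB2.3 are uncertain between near-identical copies. In the RefSeq annotation 16 of the 42 genes overlap a gene on the other strand, and whether strand was used in counting is not stated. The partner of LHCB2.3, which shares 595 bases with it, stayed at 5.46 to 7.46 RPKM in all 12 libraries.

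The 42 genes made up a large part of every library. They took 7.41% to 17.38% of all reads, 31 of the 50 genes with the highest mean RPKM were among them, and 26 of the 42 were above 1000 RPKM in every library. LHCB1.3 (AT1G29930), which codes for a subunit of the trimeric major antenna LHCII, was the highest, with a mean of 15796 RPKM over 12 libraries and 1.26% to 2.26% of the reads of a library. LHCB2.3, the lowest in mean of the 9 major antenna genes, stood at 704 RPKM. In the minor antenna, whose monomeric proteins link LHCII to the photosystem II core, LHCB5 (CP26) had a mean of 4516 RPKM and LHCB4.3, a low-abundance relative of the CP29 genes, 23.7. LHCA4, which pairs with LHCA1 in the antenna belt of photosystem I, reached 4499 RPKM, and LHCA6, known for linking photosystem I to the chloroplast NDH complex, 93.8. Among photosystem II subunits the range was 5893 (PSBR) to 647 (PSBY), and among photosystem I subunits 3059 (PSAO) to 771 (PSAD2, a stromal subunit at the ferredoxin docking site). All 42 passed the filter on low values, and the fewest reads behind any value was 161.

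The share of reads in these genes depended on the replicate number. In WT it was 17.38% in replicate 1, 11.97% in replicate 2 and 9.88% in replicate 3. The same order held in pkl (13.97%, 8.65% and 7.41%) and in nrpd1 (15.15%, 10.22% and 8.88%), while in nrpe1 replicate 1 (15.2%) stood above replicates 2 and 3 (9.56% and 9.7%). The 4 replicate 1 libraries (13.97% to 17.38%) therefore did not overlap the 8 others (7.41% to 11.97%), whereas the genotypes overlapped throughout. The 4 genes of the Rubisco small subunit, the enzyme of carbon fixation, took 1.54% to 1.91% of the reads in the same libraries. The labels do not say what libraries of 1 replicate number share.

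**Figure D1:**
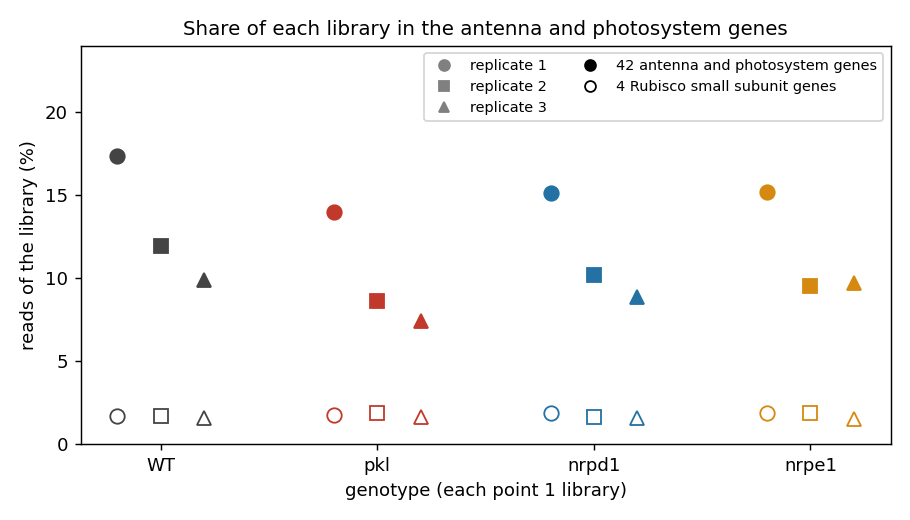
Percentage of each library's reads (y axis) in the 42 antenna and photosystem genes (filled) and in 4 Rubisco small subunit genes (open), for the 3 libraries of each genotype (x axis, symbols by replicate number). The filled circles of replicate 1 lie at 13.97% to 17.38%, above all other filled symbols, and the open symbols lie between 1.54% and 1.91%.

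Comparing the replicate numbers across genotypes asked which of the genes carried this difference. Each number held 1 library per genotype, so SE and p-values of these comparisons measure the spread among the 4 genotypes. A number itself was not repeated, so they do not measure how numbers vary in general. Replicate 1 was above replicate 2 with a log2 fold change of at least 1 and an adjusted p under 0.05 (limma, genotype and replicate number in 1 model) for 7 of the 42 genes, against 1.91% of the 23669 features tested, and 0 were called lower (4.34%). With the adjusted p alone 31 of 42 were higher, against 10.6% of features. Against replicate 3, 9 genes were called higher (2.72% of features), 0 lower (4.66%), and 37 were higher by the adjusted p alone (11.1%). The median log2 fold change of the 42 genes was 0.44 against replicate 2 and 0.57 against replicate 3, where the medians of all features were -0.07 and -0.14. After scaling that brought the latter medians to 0.00 and -0.01, the medians of the 42 genes were 0.52 and 0.70, with 8 and 12 genes called and 38 and 42 past the adjusted p. The shares of all features called in the scaled fits are not given here, so these counts cannot be set against them.

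Without that scaling all the called genes were antenna genes of photosystem II, and with it 2 LHCA genes were also called against replicate 3. LHCB2.3 (AT3G27690) showed the largest difference. Its level in replicates 1, 2 and 3 was 2165, 310 and 176 RPKM in WT. It was 1237, 167 and 84.5 RPKM in pkl. It was 1744, 196 and 117 RPKM in nrpd1 and 1840, 259 and 156 RPKM in nrpe1. Within each genotype replicate 1 was thus 6.99 to 8.9 times replicate 2 and 11.8 to 14.9 times replicate 3. All 4 replicate 1 libraries lay above the 8 others, whereas replicates 2 and 3 overlapped across genotypes. The log2 fold changes were 2.92 (SE 0.08, adjusted p = 8.89e-08) and 3.74 (SE 0.08, adjusted p = 1.84e-08).

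LHCB2.1 and LHCB2.2 followed. LHCB2.1 (AT2G05100) was at 3871, 1238 and 798 RPKM in WT, at 2650, 628 and 350 in pkl, at 3374, 873 and 558 in nrpd1, and at 3374, 965 and 725 in nrpe1. LHCB2.2 (AT2G05070) was at 3269, 1130 and 719 RPKM in WT, at 2016, 481 and 298 in pkl, at 2941, 704 and 496 in nrpd1, and at 2729, 816 and 641 in nrpe1. For both genes all 4 replicate 1 libraries lay above the 8 others, and replicate 2 lay above replicate 3 within each genotype. Against replicate 3, LHCB2.1 was higher by 2.50 on the log2 scale (SE 0.12, adjusted p = 6.86e-07) and LHCB2.2 by 2.40 (SE 0.12, adjusted p = 1.03e-06). LHCB2 proteins are the LHCII subunits whose phosphorylation is known to accompany state transitions, the movement of antenna between the photosystems.

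Of the LHCB1 genes, which code for most of LHCII, LHCB1.1 and LHCB1.4 were called against both other numbers (log2 fold changes 1.33 and 1.14 against replicate 2, 1.81 and 1.51 against replicate 3) and LHCB1.2 against replicate 3 (1.16). LHCB1.3 was higher by 0.44 (adjusted p = 0.0516) against replicate 2 and by 0.54 (adjusted p = 0.0177) against replicate 3. The family members therefore moved by unequal amounts. Within a library, where the library total cancels, LHCB2.3 made up 21.0% to 23.3% of the summed LHCB2 RPKM in replicate 1, 11.0% to 13.1% in replicate 2 and 10.003% to 11.5% in replicate 3. LHCB1.3 made up 40.9% to 44.5% of the summed LHCB1 RPKM in replicate 1, 47.2% to 52.0% in replicate 2 and 53.1% to 55.9% in replicate 3, so its share was lowest where the family was highest. The shares within LHCB1 carry the uncertainty between near-identical copies described above. LHCB4.2, the second CP29 gene, made up 38.4% to 41.4% of the LHCB4 sum in replicate 1 and 26.6% to 32.0% in the others.

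LHCB3, the third kind of LHCII subunit, and LHCB4.2 were called against both other numbers (1.09 and 1.18 against replicate 2, 1.35 and 1.26 against replicate 3), and LHCB6 (CP24) against replicate 3 (1.15). No LHCA, PSB or PSA gene reached a log2 fold change of 1, but with the other scaling 2 LHCA genes did against replicate 3 (at most 1.09). The antenna genes of photosystem I had a median of 0.57 against replicate 3 and all 6 passed the adjusted p, among them LHCA1 and LHCA4 with 0.95 each. The 10 photosystem II subunit genes had a median of 0.44 with 9 past the adjusted p, led by PSBO2 (0.77), a protein of the oxygen-evolving complex, and PSBS (0.71), the sensor of energy-dependent quenching. The 12 photosystem I subunit genes had a median of 0.52 with 9 past the adjusted p. The smallest difference was that of PSAG, a membrane subunit next to the LHCA belt, with -0.05 (adjusted p = 0.713) against replicate 2 and 0.18 (adjusted p = 0.138) against replicate 3; with the other scaling the first value was 0.029.

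**Figure D2:**
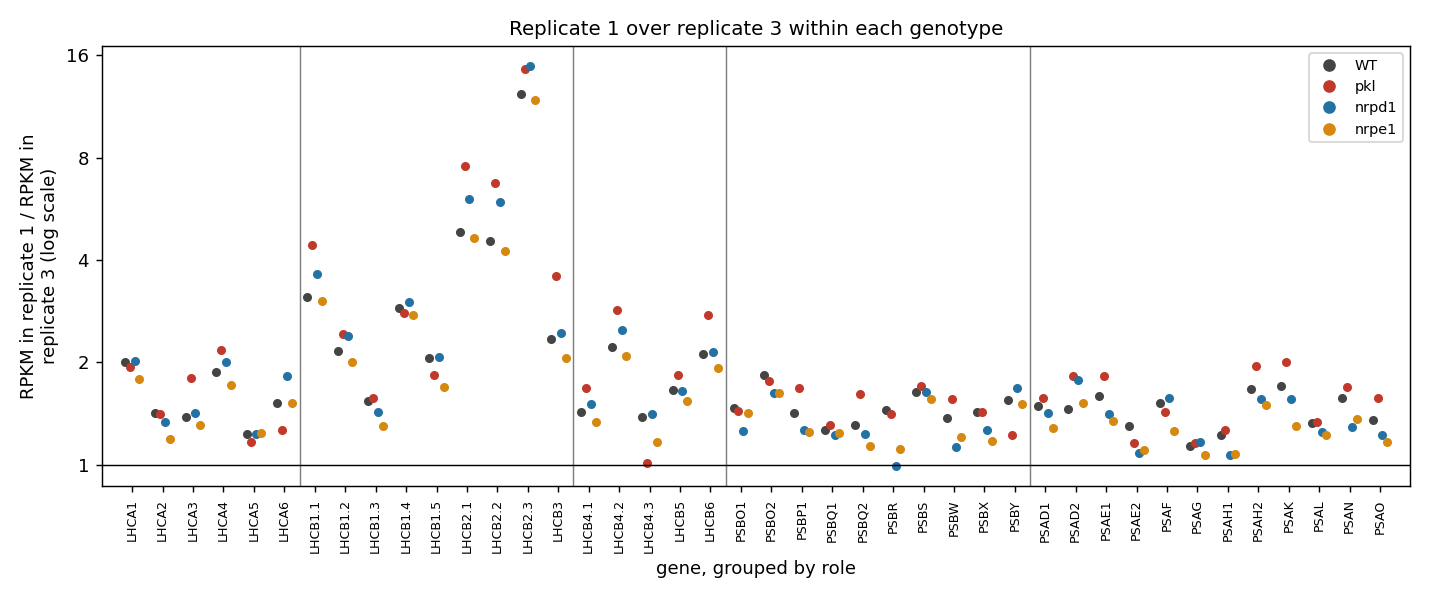
Ratio of RPKM in replicate 1 to RPKM in replicate 3 (y axis, log scale) for each of the 42 genes (x axis, grouped by role with vertical lines), 1 point per genotype. LHCB2.3 stands highest at 11.8 to 14.9, followed by LHCB2.1 and LHCB2.2 at 4.26 to 7.57, and PSAG lies at 1.07 to 1.17.

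Replicate 1 was the highest of the 3 numbers within each of the 4 genotypes for 38 of the 42 genes, against 11.3% of features. The exceptions were LHCB4.3, PSBR, PSAD1 and PSAG. All 4 replicate 1 libraries stood above all 8 others for 25 genes, against 5.87% of features: all 9 major antenna genes, 4 of 5 minor antenna genes, 4 of 6 LHCA genes, 5 of 10 PSB genes and 3 of 12 PSA genes (PSAE1, PSAH2 and PSAK). The map of relative levels shows this as a block of high values over the first 4 columns that is deepest in the LHCB2 genes.

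**Figure D3:**
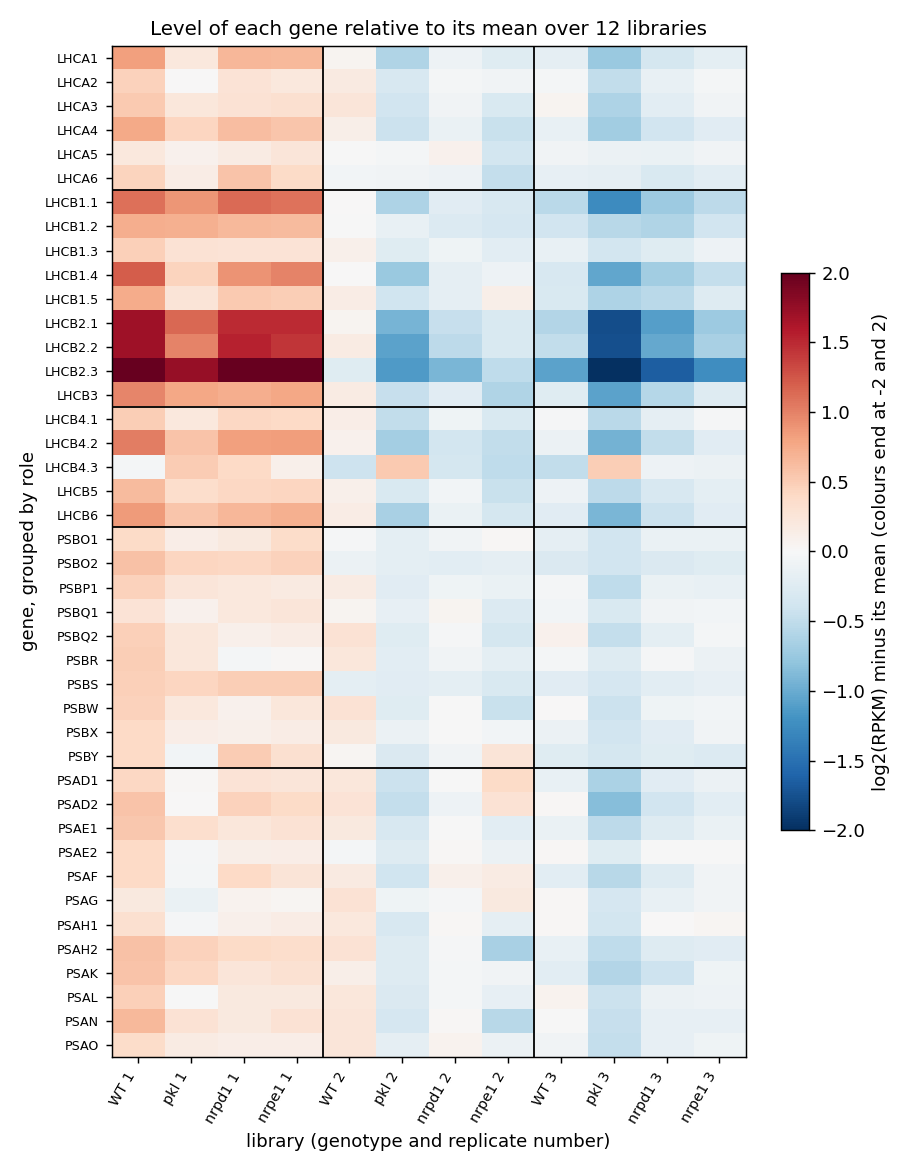
Level of each gene (y axis, grouped by role with horizontal lines) in each library (x axis, grouped by replicate number with vertical lines), as log2(RPKM) minus the mean of the gene over the 12 libraries. The colour scale ends at -2 and 2, which the LHCB2.3 values pass. Values are high in the 4 replicate 1 libraries, and in the pkl column of each number the values lie below WT for every gene but LHCB4.3.

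Replicates 2 and 3 differed less. No gene was called between them (0.228% of features were, in either direction), 14 had an unadjusted p under 0.05 (18.2% of features), and the adjusted p passed for LHCB2.1 (0.63, SE 0.12, adjusted p = 0.0308) and LHCB2.3 (0.82, SE 0.08, adjusted p = 0.00426), both higher in replicate 2 as were 0.879% of features, while 0 were lower (0.993%). On the reads themselves (voom) 10 genes passed, a count whose share of all features is not given here, and 17 had an unadjusted p under 0.05 (18.8% of features). Replicate 2 was above replicate 3 within all 4 genotypes for 17 genes (8.43% of features), among them all LHCB1 and LHCB2 genes but LHCB1.3. Within WT, pkl and nrpd1 it was above for 39 genes (17.2% of features), and the replicate 2 library of the remaining genotype, nrpe1, was the shallowest of the 12.

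Other genes of the chloroplast and the clock moved between the same libraries, and their part in the result was not tested. Between replicates 1 and 3, 11.1% of all features were higher by the adjusted p, 2.72% were called higher and 4.66% called lower. The share lower by the adjusted p alone is not given here, so counts of lower genes below cannot be set against it. Of 14 chlorophyll synthesis genes, 12 were higher in replicate 1 than in replicate 3 by the adjusted p and 6 were called. They were led by GUN4, an activator of magnesium chelatase (2.57), and CAO, which makes chlorophyll b (2.16). Both transcription factors GLK1 and GLK2, known activators of antenna genes, were called (1.501 and 3.11), as was CPSRP43 (1.03), which carries antenna proteins to the thylakoid. Of 10 circadian clock genes, 6 were higher and 4 lower by the adjusted p: PRR9 (4.77), CCA1 (3.73) and LHY (2.63), whose transcripts are known to peak in the morning, were called higher, and ELF4 (-1.82), TOC1 (-1.69) and LUX (-1.56), which peak in the evening, were called lower. CCA1 lay at 12.6 to 17.4 RPKM in replicate 1 and at 0.584 to 1.82 RPKM in the 8 other libraries, with no overlap. Of 10 carbon fixation genes 8 were higher by the adjusted p and 0 called, and of 9 genes of electron transport and ATP synthase 5 were higher, 1 called (ATPD, 1.03) and 1, LFNR2, was lower.

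The comparison of pkl with WT asked whether mutation of the remodeler changed these genes. In pkl 41 of the 42 genes lay below WT within each of the 3 replicate numbers, against 19.3% of features, and 1, LHCB4.3, lay above WT within each (34.0% of features). The pkl mean was 54.6% to 95.7% of the WT mean for the 41 genes, with a median of 75.8% over all 42. The median log2 fold change was -0.41, where the median of all features was 0.07. Without the replicate number in the model, no gene was called (1.9% of features were) and 0 of 42 had an adjusted p under 0.05 (limma, 1.34% of features were lower and 1.83% higher), 7 had an unadjusted p under 0.05 (15.5% of features), and voom on the reads gave 0 with an adjusted p under 0.05 as well. With the replicate number as a block, 32 had an unadjusted p under 0.05 (27.9% of features) and 18 passed the adjustment, 17 lower (4.73% of features) and 1 higher (7.74%). Of these, LHCB2.2 was called lower with the fold threshold (1.79% of features) and 0 genes were called higher (1.71%).

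The counts under the block rest on few libraries: with 1 of the 6 libraries left out they ran from 7 to 17. Leaving out WT replicate 2 or pkl replicate 2 gave 7, pkl replicate 3 gave 8, WT replicate 1 gave 9, WT replicate 3 gave 11 and pkl replicate 1 gave 17. The shares of all features that passed in these fits are not given here, so whether the counts fell for these genes in particular cannot be said.

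Among major antenna genes the LHCB2 genes fell most. LHCB2.2 in pkl was at 61.7%, 42.5% and 41.5% of WT in replicates 1, 2 and 3 (log2 fold change -1.07, SE 0.14, adjusted p = 0.00131 with the block). LHCB2.1 was at 68.4%, 50.8% and 43.8% of WT (-0.90, SE 0.13, adjusted p = 0.00269). LHCB2.3 was at 57.1%, 54.0% and 48.0% of WT (-0.92, SE 0.09, adjusted p = 0.00043). Without regard to the numbers the pkl and WT libraries of all 3 genes overlapped, since pkl replicate 1 stood above WT replicates 2 and 3, and without the block leaving out WT replicate 1 turned LHCB2.3 to 0.15. LHCB1.4 (-0.75, adjusted p = 0.00144) and LHCB1.1 (-0.53, adjusted p = 0.0368) also fell, while LHCB1.2 was at -0.10 (adjusted p = 0.647) and LHCB1.3 at -0.25 (adjusted p = 0.387). LHCB3 was at -0.55 (adjusted p = 0.0826) and LHCB1.5 at -0.44 (adjusted p = 0.0651).

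In the minor antenna LHCB4.2 (-0.68, adjusted p = 0.00685), LHCB6 (-0.59, adjusted p = 0.0207) and LHCB4.1 (-0.47, adjusted p = 0.0341) fell. LHCB4.3 (AT2G40100) rose. It was at 32.4, 32.8 and 32.0 RPKM in pkl and at 22.2, 17.2 and 16.2 in WT, so that all 3 pkl libraries lay above all 3 WT libraries (14.3% of features did so). Its log2 fold change was 0.82 (SE 0.14, adjusted p = 0.00495 with the block, 0.0668 without it), and without replicate 1 of every genotype the model with no block gave 0.95 (adjusted p = 0.0319). The pkl values spanned less than 1 RPKM, and this was the only one of the 42 genes with pkl above WT in every number. In nrpd1 it was at 30.1, 17.9 and 21.3 RPKM and in nrpe1 at 24.6, 16.0 and 21.1, which overlapped WT. LHCB4.3 made up 0.698% to 1.36% of the LHCB4 sum in pkl and 0.377% to 0.458% in WT.

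Among the photosystem I genes 6 of 12 subunit genes and 3 of 6 LHCA genes fell with the block. PSAD2 (AT1G03130) was at 748, 531 and 411 RPKM in pkl and 1104, 897 and 757 in WT, without overlap (-0.73, SE 0.10, adjusted p = 0.00214). PSAD1, its close copy with a coding identity of 86.3%, fell by 0.51 on the log2 scale (adjusted p = 0.0216). PSAL, PSAH1 and PSAG were the other genes with all 3 pkl libraries below all 3 WT libraries, 4 of 42 in all against 7.64% of features. PSAL and PSAH1, subunits on the side where LHCII docks in state transitions, fell by 0.50 (adjusted p = 0.014) and 0.42 (adjusted p = 0.028). PSAG and the plastocyanin-binding subunit gene PSAF fell by 0.35 (adjusted p = 0.0481) and 0.45 (adjusted p = 0.0317). LHCA1 fell by 0.61 (adjusted p = 0.00932), LHCA3 by 0.53 (adjusted p = 0.0302) and LHCA2 by 0.47 (adjusted p = 0.0224), whereas the rare LHCA5 and LHCA6 were at -0.07 and -0.11 (adjusted p = 0.736 and 0.603).

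None of the 10 photosystem II subunit genes passed, with or without the block, although all were below WT within each number. Their pkl means were 74.6% to 95.7% of WT, with a median log2 fold change of -0.29. The lowest was PSBQ2 (-0.44, adjusted p = 0.058 with the block) of the oxygen-evolving complex, and the nearest to WT was PSBS (-0.07, adjusted p = 0.64). PSBO1 (AT5G66570), the main manganese-stabilizing protein, was at 4546, 3631 and 3161 RPKM in pkl and 5403, 4096 and 3671 in WT, which overlapped (-0.21, adjusted p = 0.267). Whether photosystem II subunit genes differed from antenna genes in their response was not tested.

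**Figure D4:**
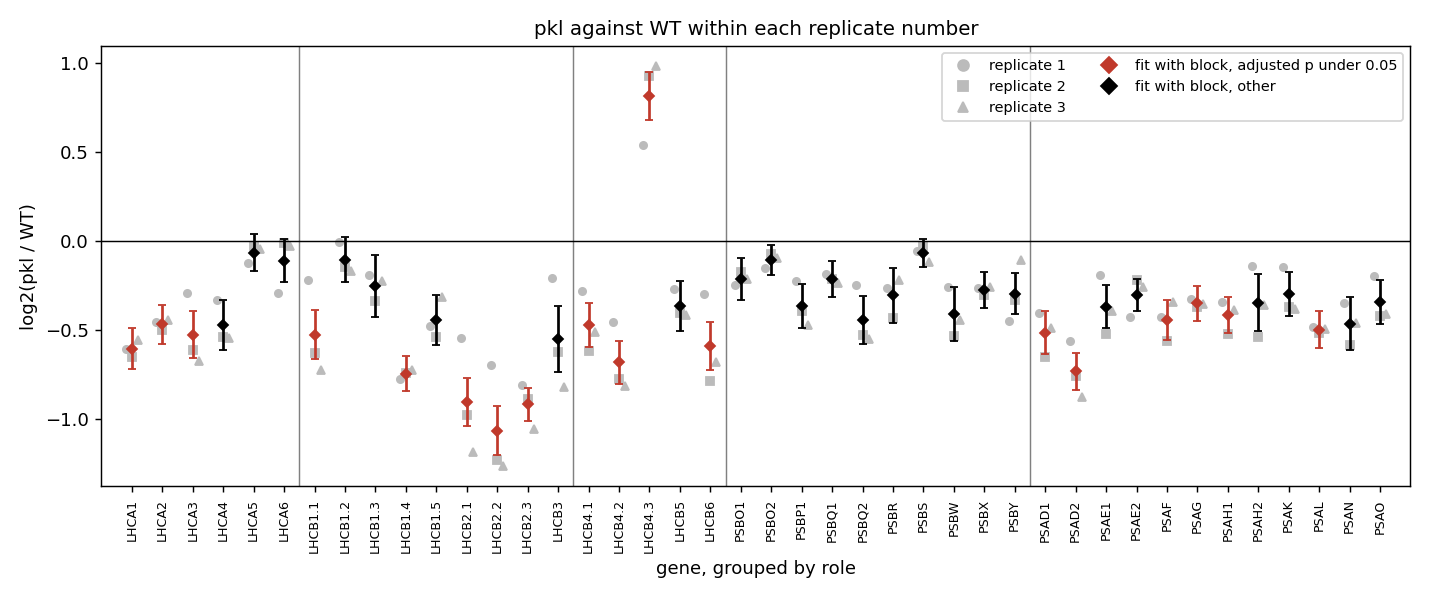
log2 of pkl over WT (y axis) for the 42 genes (x axis, grouped by role with vertical lines). Grey symbols are the 3 replicate numbers, diamonds the log2 fold change fitted with the number as a block, error bars its SE, and red diamonds an adjusted p under 0.05. All genes but LHCB4.3 (0.82) lie below 0 in all 3 numbers, LHCB2.2 lowest at -1.07.

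Levels of other genes in the same pkl libraries were as follows, with the block. Of all features 7.74% were higher and 4.73% lower by the adjusted p, and 1.71% and 1.79% were called higher and lower. Of 10 carbon fixation genes none fell and 2, RBCS1B (0.48) and SBPASE (0.37), rose, with a median of 0.19. Of 14 chlorophyll synthesis genes 3 fell: PORA, a light-dependent protochlorophyllide reductase (-2.32, called), HEMA1 (-0.66) and GUN4 (-0.43), with a median of -0.10. PORA was rare, at 4.42, 1.55 and 1.60 RPKM in WT and 1.198, 0.26 and 0.117 in pkl. GLK1 and GLK2 were at -0.12 and -0.36 (adjusted p = 0.68 and 0.065). Of 10 related antenna and photosystem genes ELIP2 (1.296, called) and PSBP2 (0.95) rose. ELIP2 was rare too, at 6.89, 0.814 and 1.41 RPKM in WT and 20.3, 2.60 and 2.49 in pkl. Of 9 genes of electron transport and ATP synthase PGR5 fell (-0.29), and of 10 clock genes TOC1 rose (0.29). The genes outside the 42 were named after their values were seen. The 9 root markers summed to 1070 to 1410 RPKM in pkl and 1330 to 1710 in WT, overlapping, and without PYK10, their most abundant gene, to 71.2 to 74.4 and 61.3 to 65.6. The 10 seed storage genes summed to 28.8, 2.71 and 4.98 RPKM in pkl replicates 1, 2 and 3, so the highest sum rests on 1 library. In WT they summed to 0.936 to 1.54, with CRC, CRB, SESA1, SESA2 and SESA3 at 0. In pkl replicate 2 CRC, SESA1, SESA2 and SESA3 were at 0 as well. The part of either in the result was not tested.

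**Figure D5:**
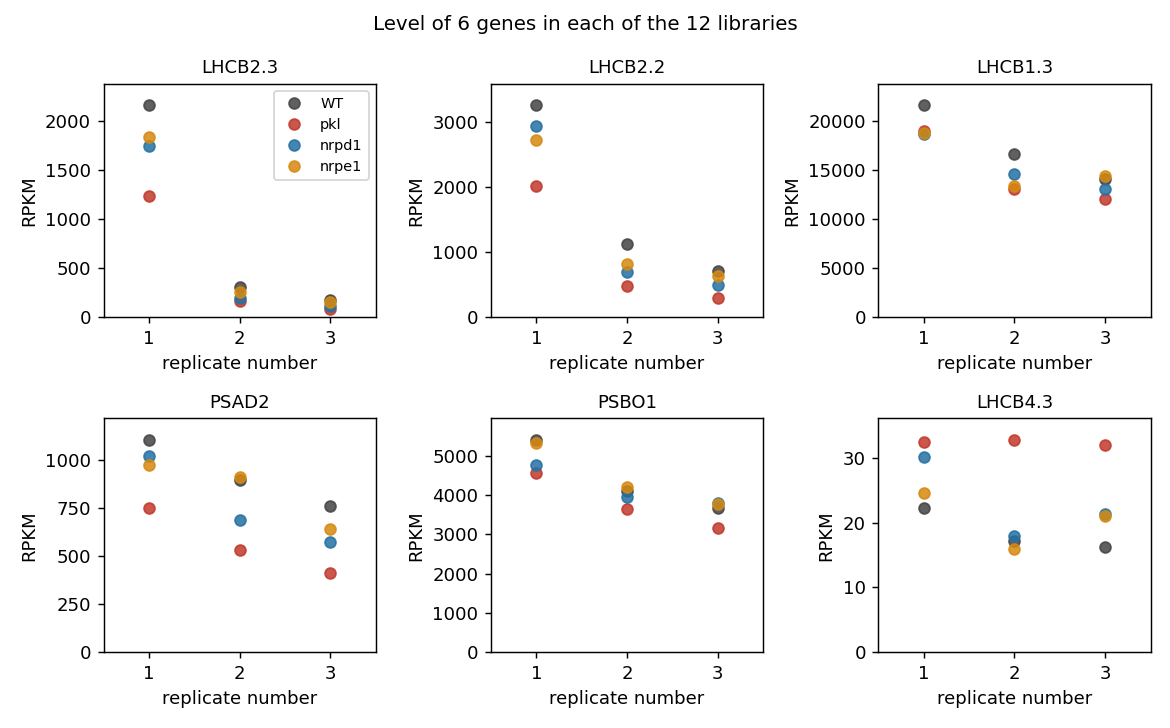
RPKM (y axis, from 0) of 6 genes in the 12 libraries by replicate number (x axis) and genotype (colour), 1 point per library. The 3 genes of the upper part and PSAD2 and PSBO1 are high in replicate 1. For these genes pkl is lowest in each number, except for LHCB1.3 in replicate 1, where nrpd1 and nrpe1 lie slightly lower. For LHCB4.3 the pkl points lie at 32.0 to 32.8 RPKM, above WT throughout.

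For nrpd1 and nrpe1 the comparison asked whether mutants of RNA-directed DNA methylation changed the same genes. Without the block no gene was called in nrpd1 (0.972% of features) or nrpe1 (0.435%). None passed the adjusted p alone either, where 0.389% of features were higher and 0.6% lower in nrpd1 and 0.351% and 0.0929% in nrpe1. In both mutants limma gave 0 genes with an unadjusted p under 0.05 (4.61% of features in nrpd1, 4.0% in nrpe1), and voom on the reads 0 as well. With the block 8 genes in nrpd1 (9.6% of features) and 7 in nrpe1 (10.4% of features) had an unadjusted p under 0.05. Of these LHCB2.3 in nrpd1 passed the adjustment (1 of 42, where 0.887% of features were lower and 0.57% higher): it was at 1744, 196 and 117 RPKM against 2165, 310 and 176 in WT, lower in every number (-0.52, SE 0.09, adjusted p = 0.0218). This call was lost on leaving out any of 5 of the 6 libraries, the exception being nrpd1 replicate 1. In nrpe1 0 of 42 passed, where 0.414% of features were higher and 0.173% lower, and with the fold threshold 0 genes were called in either mutant (1.2% of features in nrpd1, 0.532% in nrpe1).

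The median log2 fold change of the 42 genes was -0.20 in nrpd1 and -0.17 in nrpe1, where the medians of all features were 0.04 and 0.01. In nrpd1 31 genes lay below WT within each number (11.6% of features) and in nrpe1 26 did (13.3%). No gene had all 3 libraries of either mutant below or above all 3 of WT (3.54% and 5.09% of features in nrpd1, 2.92% and 4.1% in nrpe1). The lowest in nrpd1 were the LHCB2 genes, LHCB2.2 at -0.46 and LHCB2.1 at -0.41 beside LHCB2.3 (adjusted p = 0.253 and 0.312 with the block). All 3 genes lay below WT within each number. In replicates 1, 2 and 3 LHCB2.1 was at 87.2%, 70.6% and 69.8% of WT. LHCB2.2 was at 89.98%, 62.3% and 69.0%, and LHCB2.3 at 80.5%, 63.2% and 66.6%. Without the block, leaving out WT replicate 1 gave 0.16 for LHCB2.2, 0.25 for LHCB2.1 and 0.55 for LHCB2.3. Leaving out nrpd1 replicate 3 gave 0.055, 0.13 and 0.25. These fits compare groups with unequal replicate numbers, and replicate 1 was far above the others, so their sign cannot decide the direction. The lowest in nrpe1 were PSAN, a lumenal subunit of photosystem I (-0.44, adjusted p = 0.406), PSAH2 (-0.42, adjusted p = 0.45) and PSBQ2 (-0.36, adjusted p = 0.446). The highest in nrpd1 were LHCB4.3 (0.30, adjusted p = 0.538) and PSBS (0.01), and in nrpe1 LHCB4.3 (0.14, adjusted p = 0.71), PSBY (0.04) and PSBO1 (0.02). All 3 mutants were compared with the same WT libraries, so their values are not independent of each other. Of the other lists no gene passed in nrpd1 or nrpe1 with the block but 2 of 9 root markers, COBL9 and EXPA7, which were called lower in nrpd1. WT replicate 1 held the largest share of these genes of all 12 libraries.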

How the data were processed

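Poly(A) RNA of whole seedlings was sequenced as stranded paired-end reads, 3 libraries for each of 4 genotypes, called biological replicates in the series text. Groups and replicate numbers came from the sample titles. The deposited values are RPKM: the authors trimmed the reads, mapped them to TAIR10 with Subread, counted them over genes and transposable elements with featureCounts and divided by feature length and library total. The submitters' processing notes name CASAVA 1.8, Trim Galore 0.4.0, Subread 1.5.1 and edgeR. RPKM divides by the library total, so abundant genes such as these lower all other values of a library when they rise.

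In the deposited RPKM values of a feature 1 read makes a fixed step, from which whole reads were recovered for 100% of the features above 0, and library totals with them. Precision is given by the spread over libraries. The tests used limma 3.58.1 (R 4.3.3; eBayes, trend on mean level). Values entered as log2(RPKM + 0.1), and the added 0.1 makes the changes of low genes look smaller. Features of at least 0.1 RPKM in at least 3 libraries were tested (23669), and p-values were adjusted by Benjamini-Hochberg over all of them. A call needed both an adjusted p under 0.05 and a log2 fold change of 1 or more in size. The authors tested counts with edgeR. Here the deposited unit called for limma. Mutants were compared with WT in 1 model of all 12 libraries, and replicate numbers in a model of genotype and number, in all 3 pairs. The deviations from the group means of libraries with the same number correlated at 0.149 to 0.6 in all 18 pairs of libraries (-0.479 to 0.229 in 36 pairs with different numbers), so the numbers were taken to pair the libraries and results with the number as a block are given. The pairing comes from the data, since no label states it. It did not separate numbers 2 and 3 in nrpe1. With nrpe1 replicates 2 and 3, WT replicate 2 correlated at 0.149 and 0.229, pkl replicate 2 at 0.185 and 0.185, and nrpd1 replicate 2 at 0.193 and 0.18. Scripts were tested on simulated data.

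Members, lists and tests were chosen with earlier results of these data known. Named were genes past the adjusted p in a mutant, the 3 largest changes in each direction per comparison, the extremes of each role group and near-identical genes. Sequences were read from the RefSeq genome and annotation of TAIR10.1, which held all 42 genes. Only 3 have the exonic length that the RPKM values imply, so gene starts can differ from those of the annotation the authors counted over. Alternatives tried were the pseudocount, the filter, the scaling, voom on the reads, the block and leaving out libraries.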

Additional observations from a re-analysis of the deposited data

How the results depend on the processing

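The 3 mutant comparisons without a block gave 0 called genes under every alternative with no block. With the replicate block 1 gene was called in pkl, also when the block went with median ratio scaling (1) or with voom (1). These 2 joint settings and leaving out libraries under the block were chosen after seeing the data, and the latter gave 0 to 2 called genes: 2 without WT replicate 1 or pkl replicate 1, 1 without WT replicate 3 or pkl replicate 2, and 0 otherwise. Genes past the adjusted p alone in pkl rose from 0 to 18 with the replicate block, 26 with block and scaling and 31 with block and voom. The share of all features past it also rose with the block, from 1.34% to 4.73% lower and from 1.83% to 7.74% higher. Shares of all features are not given for the other settings of this paragraph, so their counts have no such comparison. Under the block they were 9 without WT replicate 1, 7 without WT replicate 2, 11 without WT replicate 3, 17 without pkl replicate 1, 7 without pkl replicate 2 and 8 without pkl replicate 3. Without replicate 1 of every genotype and no block, 1 passed. In nrpd1 1 passed with the block, with block and scaling, with block and voom, and with the block without nrpd1 replicate 1. The block changed no other count of called genes or of genes past the adjusted p. Between replicates 2 and 3 the genes past the adjusted p numbered 2, but 5 with a filter of 1 RPKM, 4 with scaling, 1 with no filter, 10 with voom and 1 to 2 with a library left out.

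Values that changed sign were small or, for LHCB2 genes, came from fits with no block and 1 library left out. With no block, leaving out 1 library moved the log2 fold change in nrpd1 from -1.16 to 0.25 for LHCB2.1, from -1.23 to 0.16 for LHCB2.2 and from -1.70 to 0.55 for LHCB2.3, and in pkl from -2.04 to 0.15 for LHCB2.3, positive without WT replicate 1. PSBS in nrpd1 was -0.039 with scaling and with block and scaling, and -0.22 to 0.24 with a library left out. In nrpe1 PSBO1 ranged from -0.12 to 0.18 (-0.0033 under the block without WT replicate 3) and PSBY from -0.12 to 0.22 (-0.077 under the block without nrpe1 replicate 2). With scaling PSAE2 was 0.017 between replicates 2 and 3 and PSAG 0.029 between replicates 1 and 2. The library nrpe1 replicate 2 was the shallowest, and the fewest reads behind a value of the 42 genes was 161. The cause of these changes was not tested.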
